A study of Homo sapiens with 16 samples.

Results

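LCE1F, LCE2A and LCE3D are late cornified envelope (LCE) genes that were read in human lung fibroblasts in which RAS had been switched on. The set was chosen by the measured counts: LCE1F and LCE2A were selected on their higher level in senescent than in non-senescent vector cells, to which were added any gene whose symbol begins LCE1, LCE2 or LCE3 and whose counts sum to 100 or more over the 16 libraries. It holds 3 of the 15 LCE1, LCE2 and LCE3 genes, and 3 of the 62069 genes counted. LCE1F (ENSG00000240386) had 10061 counts in all, LCE2A (ENSG00000187173) 4361 and LCE3D (ENSG00000163202) 117. LCE3D lay just inside the threshold, and LCE2C with 84 counts and LCE1D with 83 lay just outside it.

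LCE proteins are small, cysteine-rich proteins made by keratinocytes in the uppermost living layers of the epidermis. Transglutaminases cross-link them, late in cornification, into the protein shell that replaces the plasma membrane of a dying keratinocyte, beside involucrin, loricrin and the small proline-rich proteins. Their genes sit in a cluster, the epidermal differentiation complex, on chromosome 1, and are best known from skin and oral epithelium.

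RNA-seq counts per gene were made for 4 groups of 4 libraries, all from IMR90 ER:RAS cells. IMR90 is a lung fibroblast line, and all 4 groups carry ER:RAS, a RAS oncoprotein fused to a hormone receptor domain that 4-hydroxytamoxifen (4OHT) switches on. Sustained RAS activity drives such fibroblasts into senescence, a lasting growth arrest. AHCY, the gene knocked down, encodes the enzyme that splits S-adenosylhomocysteine, the by-product of methylation reactions. The shAHCY_4 group (replicates 61 to 64) had that hairpin and 4OHT. The shAHCY_2 group (replicates 57 to 60) had another hairpin and 4OHT. The EV_4OHT group (replicates 53 to 56) had 4OHT and the empty vector, and the EV group (replicates 49 to 52) had the empty vector without 4OHT, the non-senescent cells. The labels give 100 nM 4OHT, day 6 and passage 15. No group had 4OHT without the fusion, so an effect of 4OHT itself cannot be told apart from that of RAS. Whether libraries within a group stem from separate cultures is not in the labels, and p-values therefore speak of the spread among these libraries alone, which may be technical.

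Library totals ran from 8236199 to 15144530 counts with shAHCY_4, from 10066216 to 14692680 with shAHCY_2, from 12502278 to 15284201 in EV_4OHT and from 13956130 to 18235787 in EV. AHCY held 110 to 243 counts per library with shAHCY_4, 117 to 334 with shAHCY_2, 2023 to 2583 in EV_4OHT and 1552 to 2000 in EV. All 11 fibroblast markers were read in every group. Their summed level was 5068 to 5777 CPM (counts scaled to library size with TMM factors) with shAHCY_4, 5194 to 5700 with shAHCY_2, 5046 to 5243 in EV_4OHT and 11002 to 12666 in EV. In bulk RNA, fewer cells that make a transcript and less of it per cell cannot be told apart.

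The promoters of the 3 genes are shown because the genes had counts in all 12 libraries with 4OHT. LCE2C, LCE1D and LCE2B, under the count threshold, had counts in all 12 as well. Each line gives the 250 bases before the RefSeq start, from GRCh38.p14, on the gene's own strand. LCE1F is chr1:152774890-152775139 (+), LCE2A is chr1:152698095-152698344 (+) and LCE3D is chr1:152580517-152580766 (-). Capitals mark ATAAAAG, and CCAAT or its reverse complement.
LCE1F: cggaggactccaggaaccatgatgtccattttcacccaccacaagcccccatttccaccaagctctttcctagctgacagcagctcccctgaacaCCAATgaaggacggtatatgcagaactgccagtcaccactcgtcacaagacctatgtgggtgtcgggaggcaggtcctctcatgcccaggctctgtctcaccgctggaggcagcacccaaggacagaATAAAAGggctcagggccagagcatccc
LCE2A: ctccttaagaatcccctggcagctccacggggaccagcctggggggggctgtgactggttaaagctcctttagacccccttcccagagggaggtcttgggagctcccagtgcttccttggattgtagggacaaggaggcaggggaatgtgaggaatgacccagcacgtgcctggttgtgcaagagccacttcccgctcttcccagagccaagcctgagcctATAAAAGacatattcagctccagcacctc
LCE3D: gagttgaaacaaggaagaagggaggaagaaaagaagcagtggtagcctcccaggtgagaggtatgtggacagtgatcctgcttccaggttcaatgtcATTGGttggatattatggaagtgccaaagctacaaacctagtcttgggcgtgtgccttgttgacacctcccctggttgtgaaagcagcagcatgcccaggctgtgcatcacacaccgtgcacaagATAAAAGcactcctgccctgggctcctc

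All 3 windows held ATAAAAG, with its leading base at position -28 in LCE1F, -29 in LCE2A and -28 in LCE3D relative to the RefSeq start. This motif was chosen after the letters were seen. Searched on both strands, it was in 4.25% of 35116 human promoters of the same length and in 13 of the 14 LCE1, LCE2 and LCE3 promoters at hand. It is therefore shared with LCE genes that had no or few counts here. TATAAA, in 10.7% of all promoters, occurred in LCE2A at -30, where it overlaps ATAAAAG. The letters CCAAT, in 32.0% of all promoters, occurred in LCE1F at -155 and, on the other strand, in LCE3D at -153. The AP-1 letters TGANTCA (6.57% of all promoters) and the C/EBP letters TTGCNNNAA (7.81%) had no match in the 3 windows. Nor had the GRHL letters AACCGGTT (0.117%). These are matches of letters only, and say nothing of which factors bind.

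The start of each coding sequence is shown because LCE paralogues share sequence and reads could be split between them. Each line gives the leading 90 bases from the ATG, from the longest GENCODE v29 transcript. Capitals mark bases that differ from the member of its subfamily.
LCE1F: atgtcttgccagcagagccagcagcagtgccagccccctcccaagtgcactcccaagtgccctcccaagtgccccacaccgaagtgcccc
LCE1D: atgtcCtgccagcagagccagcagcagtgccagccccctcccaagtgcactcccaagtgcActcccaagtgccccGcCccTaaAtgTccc
LCE1E: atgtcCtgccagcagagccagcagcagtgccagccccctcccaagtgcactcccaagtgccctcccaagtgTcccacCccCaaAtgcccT
LCE2A: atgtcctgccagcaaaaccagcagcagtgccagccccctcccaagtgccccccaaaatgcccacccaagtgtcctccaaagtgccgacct
LCE2B: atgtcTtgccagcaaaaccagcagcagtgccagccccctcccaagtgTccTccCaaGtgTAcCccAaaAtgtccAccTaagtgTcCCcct
LCE2C: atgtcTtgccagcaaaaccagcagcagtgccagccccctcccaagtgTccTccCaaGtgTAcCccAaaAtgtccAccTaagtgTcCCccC
LCE3D: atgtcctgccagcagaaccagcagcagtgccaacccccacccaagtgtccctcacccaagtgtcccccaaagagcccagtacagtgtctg
LCE3E: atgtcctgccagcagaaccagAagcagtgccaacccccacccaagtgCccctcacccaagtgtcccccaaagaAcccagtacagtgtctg

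Over these 90 bases LCE1D differed from LCE1F at 7 and LCE1E at 6, while LCE2B differed from LCE2A at 15 and LCE2C at 16. LCE3E differed from LCE3D at only 3. Over the whole transcript, LCE1F shared 16 of its 308 windows of 50 bases (5.19%) exactly with LCE1E or LCE1D, with a longest shared run of 65 bases. Its transcript model of 357 bases covers hardly more than the coding sequence. LCE2A shared none of 543 windows with another LCE1, LCE2 or LCE3 gene. LCE3D shared 79 of 564 (14.01%), all with LCE3E, with a longest shared run of 127 bases. A read that falls wholly in such a stretch fits both genes. How long the reads were, and how reads that fit several genes were counted, is not given in the sources used here. Counts of LCE1F, and more so of LCE3D, may miss or borrow some reads. Reads shorter than 50 bases, or aligned with mismatches, are not covered by these windows, so this may hold for LCE2A too. LCE3E, the only one of the 15 genes that shares these windows with LCE3D, had 0 counts in all 16 libraries. No annotated gene overlaps any of the 15 genes.

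Fibroblasts with RAS on carried LCE1F in every library, at a level far above that of EV cells. Its counts were 423, 670, 705 and 699 in the shAHCY_4 libraries, 739, 1069, 692 and 1274 with shAHCY_2, 844, 942, 1028 and 952 in EV_4OHT, and 2, 6, 2 and 14 in EV. All 12 libraries with 4OHT were above all 4 EV libraries, which were low but not at 0. In scaled units LCE1F was at 51.5, 53.4, 52.2 and 45.7 CPM with shAHCY_4, at 68.4, 76.4, 71.8 and 87.0 with shAHCY_2, at 70.2, 74.0, 68.8 and 71.6 in EV_4OHT, and at 0.124, 0.410, 0.106 and 0.861 in EV. In order of level, shAHCY_2 came highest with 75.9 ± 8.11 CPM (mean ± SD, n = 4 for each group) and its libraries overlapped those of EV_4OHT at 71.1 ± 2.21 CPM. The shAHCY_4 libraries averaged 50.7 ± 3.43 CPM, below both without overlap, and EV averaged 0.375 ± 0.352 CPM.

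LCE2A showed the same contrast with EV and a clearer order among the 4OHT groups. Its counts were 137, 191, 243 and 188 with shAHCY_4, 333, 406, 268 and 488 with shAHCY_2, 453, 486, 618 and 516 in EV_4OHT, and 5, 6, 7 and 16 in EV. The levels were 16.7, 15.2, 18.0 and 12.3 CPM with shAHCY_4, 30.8, 29.03, 27.8 and 33.3 with shAHCY_2, 37.7, 38.2, 41.4 and 38.8 in EV_4OHT, and 0.311, 0.410, 0.370 and 0.984 in EV. No 2 groups overlapped. EV_4OHT was highest at 39.0 ± 1.65 CPM, followed by shAHCY_2 at 30.2 ± 2.39, shAHCY_4 at 15.5 ± 2.45 and EV at 0.519 ± 0.313 (SD, n = 4 each).

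LCE3D belongs to the LCE3 subfamily, known in skin for its induction after barrier damage and in psoriasis. It was read at a trace: 6, 8, 21 and 18 counts with shAHCY_4, 4, 5, 3 and 6 with shAHCY_2, 13, 17, 6 and 10 in EV_4OHT, and 0 in each EV library. Its level was 1.02 ± 0.424 CPM with shAHCY_4, 0.362 ± 0.0406 with shAHCY_2 and 0.892 ± 0.405 in EV_4OHT (SD, n = 4 each). The EV_4OHT libraries overlapped those of both hairpins, whereas the hairpins did not overlap each other.

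**Figure D1:**
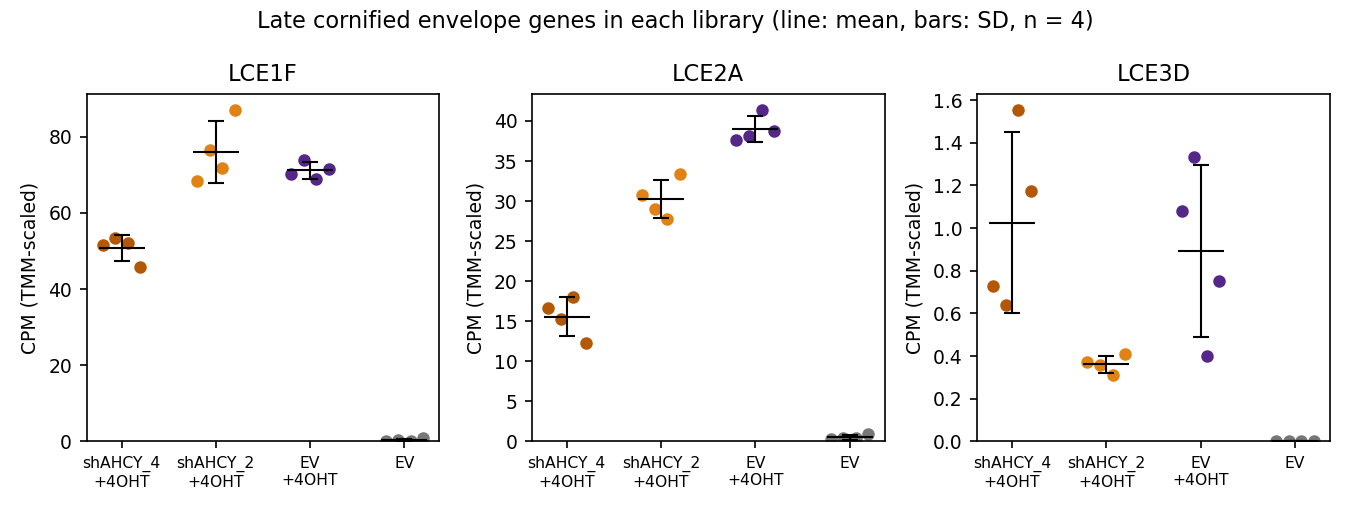
Level of LCE1F, LCE2A and LCE3D in CPM scaled by TMM factors (vertical axis, a separate linear scale for each gene) in each of the 16 libraries, as points, with the mean (line) and SD (bars, n = 4) of the shAHCY_4, shAHCY_2, EV_4OHT and EV groups. The 4 EV libraries lie at or near 0 for each gene, LCE2A is at 12.3 to 18.0 CPM with shAHCY_4 against 37.7 to 41.4 in EV_4OHT, and LCE3D stays under 1.6 CPM throughout.

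The difference between EV_4OHT and EV chose LCE1F and LCE2A, so it is given as a description, without a test. LCE1F was 190-fold higher in EV_4OHT than in EV (log2 difference 7.57) and LCE2A 74.3-fold higher (6.21). Of the 13526 genes that passed the filter on low counts, LCE1F had the 17th largest rise and LCE2A the 44th. All 3 members passed that filter through the 4OHT groups alone. In this contrast 53.5% of all genes tested were called at an adjusted p under 0.05, and 24% were higher with no overlap between the groups. Both LCE1F and LCE2A also had no overlap, which is what the choice fixes. LCE3D, at 0 in EV, was at least 19.1-fold higher in EV_4OHT, taking 3 counts summed over the 4 EV libraries as the floor (0.0455 CPM, which covers counting error only).

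With the hairpins the genes stayed far above EV. LCE1F was 135-fold higher with shAHCY_4 than in EV (log2 difference 7.08) and 203-fold higher with shAHCY_2 (7.67). LCE2A was 29.5-fold higher with shAHCY_4 (4.88) and 57.6-fold higher with shAHCY_2 (5.85). LCE3D was at least 23.5-fold higher with shAHCY_4 and at least 8.06-fold higher with shAHCY_2. These values share the EV libraries with the contrast that chose the genes and carry no test, and 51.2% of genes were called against EV with shAHCY_4 and 48.1% with shAHCY_2.

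EV replicate 52 set much of the EV level. It held 14 of the 24 LCE1F counts and 16 of the 34 LCE2A counts of that group. Without it, the log2 difference of LCE1F from EV became 7.90 with shAHCY_4, 8.49 with shAHCY_2 and 8.40 in EV_4OHT, and that of LCE2A became 5.38, 6.35 and 6.71 in the same order of groups.

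The hairpins were compared with each other in a fit of all genes (edgeR's quasi-likelihood test, two-sided, Benjamini-Hochberg adjustment over the 13526 genes tested), which shares no library with the choosing contrast. LCE2A fell to 15.5 CPM with shAHCY_4, against 30.2 CPM with shAHCY_2, a log2 difference of -0.97 ± 0.13 (SE; adjusted p = 0.000444), that is 51.1% of the shAHCY_2 level. LCE1F fell to 50.7 CPM with shAHCY_4, against 75.9 CPM with shAHCY_2, by a smaller -0.59 ± 0.13 (adjusted p = 0.0228), or 66.7%. LCE3D had 1.02 CPM with shAHCY_4 and 0.362 CPM with shAHCY_2, a log2 difference of 1.497 ± 0.47 with an adjusted p of 0.117 in the same test, which misses the threshold (95% interval 0.57 to 2.42). The groups did not overlap for any of the 3 genes, as was the case for 10.9% of all genes tested. Only 1.24% of all genes were called in this comparison, and LCE2A and LCE1F were among them. The LCE1F call was lost when 1 of 5 single libraries was left out: shAHCY_4 replicate 62, 63 or 64, or shAHCY_2 replicate 58 or 60, with adjusted p up to 0.0990 in the same test and log2 differences of -0.63 to -0.50 over all single omissions.

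Each hairpin was also set against EV_4OHT. These 2 comparisons share the EV_4OHT libraries, which the choosing contrast used too. With shAHCY_4, LCE2A fell to 15.5 CPM, against 39.0 CPM in EV_4OHT (log2 difference -1.33 ± 0.13, adjusted p = 3.34e-07 in edgeR's test), to 39.7% of that level. LCE1F fell to 50.7 CPM with shAHCY_4, against 71.1 CPM in EV_4OHT (-0.49 ± 0.13, adjusted p = 0.0115 in the same test), to 71.2%. Both genes had no overlap between these groups, as did 23.3% of all genes, and 14.4% of all genes were called. Without shAHCY_4 replicate 64 the LCE1F difference was -0.43 and missed the threshold (adjusted p = 0.0567 in edgeR's test).

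With shAHCY_2 no member passed the threshold against EV_4OHT, where 6.98% of all genes were called. LCE2A was at 30.2 CPM with shAHCY_2 and at 39.0 CPM in EV_4OHT, with no overlap between the groups (15% of all genes had none), and its log2 difference was -0.37 ± 0.13 (adjusted p = 0.0901 in edgeR's test). The same difference passed with DESeq2 (adjusted p = 0.0214), with limma-voom (0.0356), in an edgeR fit of only these 2 groups (0.0312) and without EV replicate 52 (0.0392). LCE1F differed by 0.10 ± 0.13 (adjusted p = 0.703 in edgeR's test), with a 95% interval of -0.15 to 0.34, and the groups overlapped. At an unadjusted p under 0.05 stood 2 of the 3 genes, LCE2A and LCE3D. In this comparison 2395 of the 13526 genes tested had an unadjusted p up to 0.0315 in edgeR's test. The number under 0.05 is thus at least 2395.

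LCE3D did not pass the threshold in either comparison, and its groups overlapped in both. Its log2 difference from EV_4OHT was 0.25 ± 0.41 with shAHCY_4 (adjusted p = 0.746 in edgeR's test, 95% interval -0.55 to 1.05) and -1.25 ± 0.48 with shAHCY_2 (adjusted p = 0.133, 95% interval -2.19 to -0.30). These values rest on 3 to 21 counts per library.

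**Figure D2:**
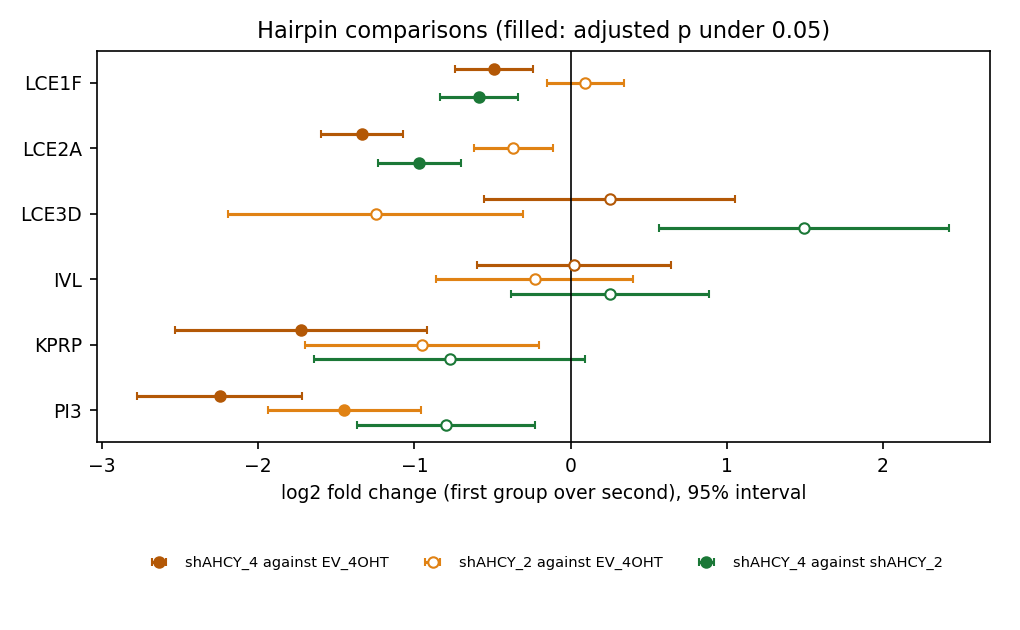
Log2 fold change (horizontal axis, with 95% intervals) of LCE1F, LCE2A, LCE3D, IVL, KPRP and PI3 for shAHCY_4 against EV_4OHT, shAHCY_2 against EV_4OHT and shAHCY_4 against shAHCY_2, with filled points where the adjusted p was under 0.05. The LCE2A points lie at -1.33, -0.37 and -0.97 in that order, the IVL intervals all span 0, and both PI3 comparisons with EV_4OHT are filled.

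The fitted changes of LCE1F and LCE2A differed in size, and the share of LCE2A in the summed counts of the pair is given for each library as a description, with no test. LCE2A took 24.5%, 22.2%, 25.6% and 21.2% of the pair's counts with shAHCY_4. It took 31.1%, 27.5%, 27.9% and 27.7% with shAHCY_2, and 34.9%, 34.0%, 37.5% and 35.1% in EV_4OHT. The 3 groups did not overlap. Summed over libraries, LCE2A made up 759 of 3256 counts with shAHCY_4 (23.3%, 95% Wilson interval 21.9 to 24.8), 1495 of 5269 with shAHCY_2 (28.4%, 27.2 to 29.6) and 2073 of 5839 in EV_4OHT (35.5%, 34.3 to 36.7). In EV the share was 50% to 77.8% per library, but it rests on 58 counts (58.6%, 45.8 to 70.4). The intervals cover counting error only, and the share compares groups, not the abundance of the 2 transcripts, which differ in length.

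**Figure D3:**
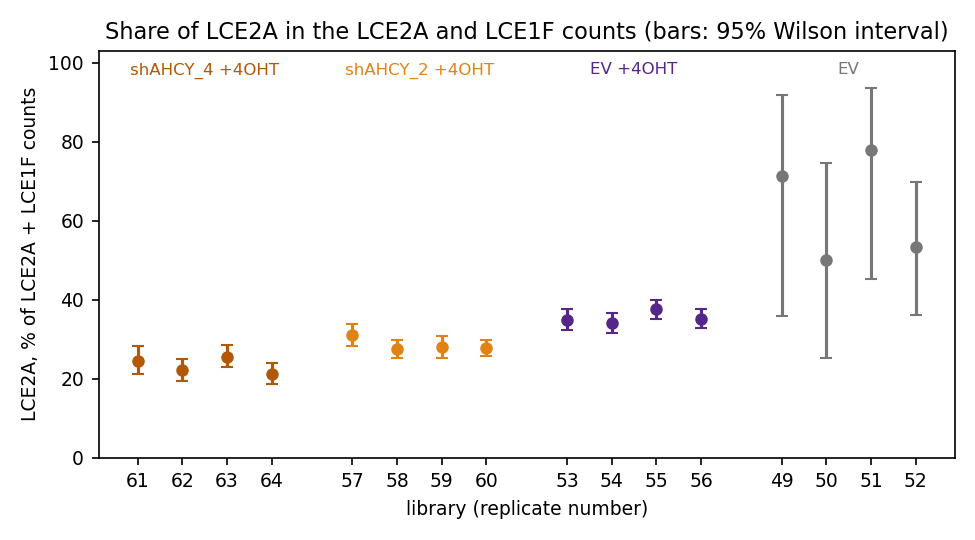
Share of LCE2A in the summed LCE1F and LCE2A counts (vertical axis, percent) in each of the 16 libraries, with 95% Wilson intervals as bars, for shAHCY_4, shAHCY_2, EV_4OHT and EV. The shares are 21.2% to 25.6% with shAHCY_4, 27.5% to 31.1% with shAHCY_2 and 34.0% to 37.5% in EV_4OHT, and the EV bars are wide because those libraries held 7 to 30 counts of the pair.

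The other 12 genes of the LCE1, LCE2 and LCE3 subfamilies were read at a trace or not at all. The 3 members held 98.3% of the 14788 counts of the 15 genes, and LCE1F with LCE2A alone 97.5%. LCE1C, LCE3B, LCE3C and LCE3E had 0 counts, and LCE1A, LCE1B, LCE2D and LCE3A had 1 to 6. The counts under the threshold summed to 85 with shAHCY_4, 80 with shAHCY_2 and 83 in EV_4OHT, and to 1 in EV.

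LCE2C had 38 counts with shAHCY_4, 21 with shAHCY_2, 24 in EV_4OHT and 1 in EV. LCE1D had 21, 35, 27 and 0 counts in the same order of groups. At these counts no direction among the 4OHT groups can be read for either gene. Against the LCE1F counts, those of LCE1D, which shares some windows with it, were 0.841% with shAHCY_4, 0.927% with shAHCY_2 and 0.717% in EV_4OHT. Against the LCE2A counts, those of LCE2C, which shares no window with it, were 5.01%, 1.40% and 1.16% in these groups. LCE4A, outside the subfamilies of the rule, had 13 counts in all, and LCE5A and LCE6A had 0.

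Along the epidermal differentiation complex, from S100A10 to S100A1, RefSeq lists 63 protein-coding genes, and 60 were matched in the counts. Of these, 13 had at least 100 counts over the 16 libraries, 25 had 1 to 99 and 22 had 0. LCE2A and LCE1F lie on either side of LCE4A, KPLCE, which was not matched by its symbol, and KPRP. Except for the S100 genes, which flank the cluster and encode calcium-binding proteins made in many cell types, LCE1F, LCE2A, LCE3D, IVL and KPRP were the genes of the complex with 100 or more counts.

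**Figure D4:**
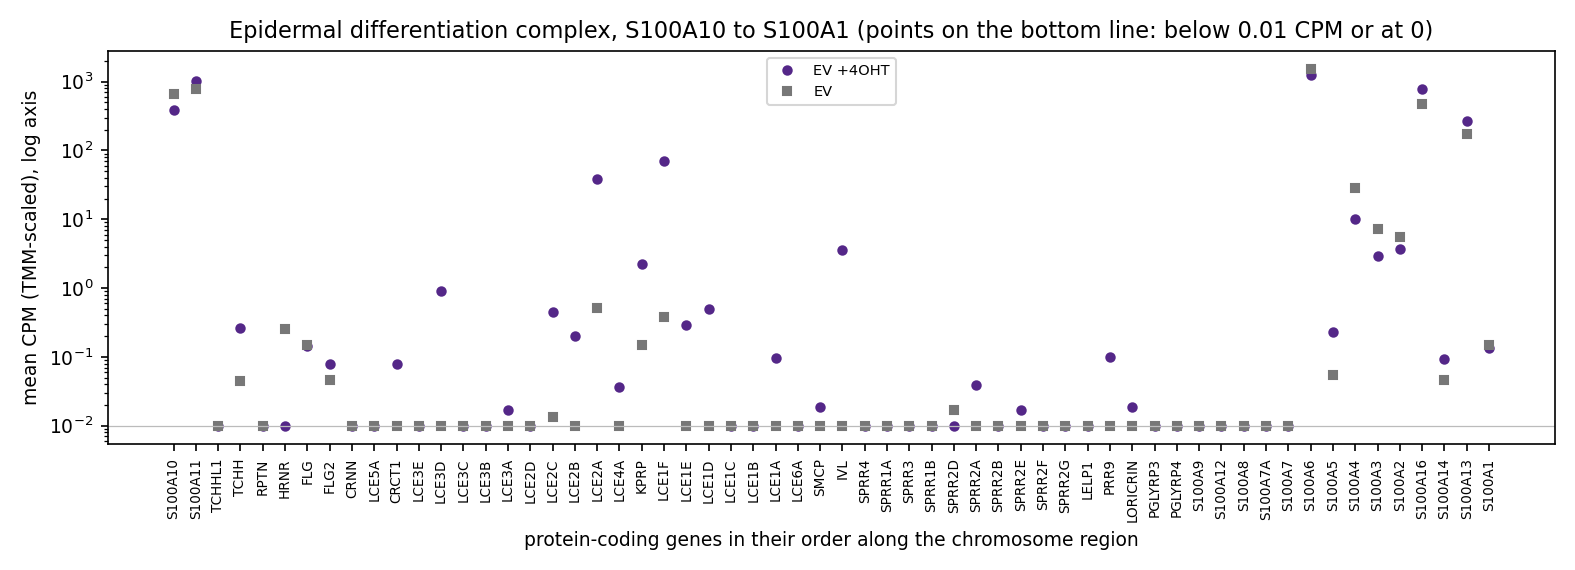
Mean level (vertical axis, CPM scaled by TMM factors, log axis) of the 60 matched protein-coding genes from S100A10 to S100A1, in their order along the chromosome (horizontal axis), in EV_4OHT (circles) and EV (squares), with values below 0.01 CPM or at 0 drawn on the bottom line. LCE1F and LCE2A stand at 71.1 and 39.0 CPM in EV_4OHT, against 0.375 and 0.519 CPM in EV, among neighbours at or near 0. Heights of different genes are not comparable, since CPM is not per length.

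Of 27 other genes of the complex, 2 passed the filter on low counts, IVL and KPRP, both through the 4OHT groups, so that their difference from EV is given as values with no test. IVL, or involucrin, the scaffold on which the cornified envelope is built, was at 3.64 ± 0.893 CPM with shAHCY_4, 3.001 ± 0.853 with shAHCY_2, 3.55 ± 1.76 in EV_4OHT and 0 in EV (SD, n = 4 each). It was at least 79.6-fold higher in EV_4OHT than in EV, and its difference from EV_4OHT did not pass with shAHCY_4 (log2 0.02 ± 0.32, adjusted p = 0.979 in edgeR's test) or shAHCY_2 (-0.23 ± 0.32, adjusted p = 0.723). KPRP, a keratinocyte proline-rich protein and the neighbour of LCE1F, was at 0.650 ± 0.205 CPM with shAHCY_4, 1.16 ± 0.221 with shAHCY_2, 2.23 ± 0.741 in EV_4OHT and 0.149 ± 0.181 in EV. Its counts summed to 34 with shAHCY_4, 57 with shAHCY_2, 121 in EV_4OHT and 9 in EV. KPRP fell with shAHCY_4 against EV_4OHT (-1.72 ± 0.41, adjusted p = 0.00641 in edgeR's test). With shAHCY_2 its difference was -0.95 ± 0.38 (adjusted p = 0.144). LORICRIN, the main envelope protein of epidermis, had 1 count in all 16 libraries.

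Of 16 S100 genes of the region, 8 were tested, and in EV_4OHT against EV 3 rose and 5 fell, with a median log2 change of -0.44 against -0.02 over all genes tested, of which 53.5% were called. S100A16 rose by 0.74 ± 0.08 and S100A13 by 0.64 ± 0.09, while S100A4 fell by 1.496 ± 0.13, S100A3 by 1.33 ± 0.21 and S100A10 by 0.75 ± 0.08 (adjusted p up to 1.49e-05 in edgeR's test). The others, named after their values were seen, were S100A11 (0.39), S100A6 (-0.30) and S100A2 (-0.57). With shAHCY_4 against EV_4OHT, 3 fell, S100A10 (-0.57), S100A13 (-0.64) and S100A11 (-0.35), and S100A3 rose (0.74), where 14.4% of all genes were called. With shAHCY_2 against EV_4OHT, where 6.98% were called, S100A4 rose (0.47, adjusted p = 0.0359), a call kept in 16 of 25 alternatives. None fell in edgeR's test, with 2 lower at an unadjusted p under 0.05, 2 lower in DESeq2 and 0 in limma-voom. Over all genes, 2395 of 13526 had an unadjusted p up to 0.0315 there in edgeR's test, so at least 2395 were under 0.05. S100A10 was the S100 gene called between the hairpins, lower with shAHCY_4 than with shAHCY_2 (-0.50, adjusted p = 0.00107 in edgeR's test). In that comparison 1.24% of all genes were called, and 2074 of 13526 had an unadjusted p up to 0.0387 in edgeR's test. At least 2074 genes were thus under 0.05. Of the S100 genes, 4 were lower there at an unadjusted p under 0.05, 2 in DESeq2 and 1 in limma-voom. The count of S100 genes lower there stayed at 1 or within 1.5 times of it in 15 of 25 alternatives and ran up to 4.

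Among 25 genes for cornification enzymes and their partners, 8 were tested, of which 6 rose and 1 fell in EV_4OHT against EV (median log2 change 0.91), where 53.5% of all genes tested were called. TGM2, a transglutaminase made in many tissues, was at 720 CPM in EV_4OHT and at 262 CPM in EV (log2 1.46 ± 0.10, adjusted p = 2.27e-11). PI3, or elafin, a protease inhibitor that transglutaminases cross-link into the envelope, was at 5.74 ± 0.793 CPM in EV_4OHT and at 0 in EV, at least 126-fold higher. CSTA, or cystatin A, another envelope precursor, had 45 counts with shAHCY_4, 31 with shAHCY_2, 40 in EV_4OHT and 2 in EV. ALOXE3, a lipoxygenase of the skin lipid barrier, was at 1.94 ± 0.228 CPM in EV_4OHT and at 0.583 ± 0.272 in EV. It had 4 to 12 counts per EV library. PI3, CSTA and ALOXE3, all among the 6 that rose, passed the filter through the 4OHT groups. PKP3, a desmosome gene and the 1 that fell, passed it through EV, with 94 counts there and 34 in EV_4OHT. For these genes the difference from EV is given as values only. The filter fixed their direction. The counts of 6 and 1 and the median of 0.91 include them and are no result about this list. ANXA1 rose by 0.29 ± 0.06 (adjusted p = 0.000354 in edgeR's test). JUP, another desmosome gene, rose by 0.37. JUP and PKP3 are named here after their values were seen. TGM1, the main transglutaminase of the epidermis, did not pass the filter and had 0 to 15 counts per library.

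PI3 fell against EV_4OHT in each hairpin comparison, which share the EV_4OHT libraries. It was at 1.46, 1.04, 1.48 and 0.915 CPM with shAHCY_4, at 1.94, 1.36, 2.28 and 2.80 with shAHCY_2, and at 5.49, 6.91, 5.16 and 5.41 in EV_4OHT. Neither hairpin group overlapped EV_4OHT. The log2 difference was -2.25 ± 0.27 with shAHCY_4 (adjusted p = 1e-05 in edgeR's test) and -1.45 ± 0.25 with shAHCY_2 (adjusted p = 0.000974). DSP, or desmoplakin, a desmosome protein, rose with shAHCY_4 to 9.21 CPM, against 4.74 in EV_4OHT (0.94 ± 0.19, adjusted p = 0.00128), and to 9.21, against 3.14 with shAHCY_2 (1.55 ± 0.20, adjusted p = 0.000125).

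Among 27 transcription factors with roles in epidermal differentiation, 17 were tested, and 6 rose and 5 fell in EV_4OHT against EV, with a median log2 change of 0.10. A share of 53.5% of all genes was called in this comparison, so the count is not particular to these factors. PRDM1, a repressor that acts in late epidermal differentiation, rose by 2.10 ± 0.15 to 58.2 CPM in EV_4OHT, against 13.5 in EV (adjusted p = 5.83e-11 in edgeR's test). The AP-1 subunits FOS and JUNB rose by 2.39 ± 0.19 and 1.30 ± 0.11, whereas FOSL2 and FOSL1 fell by 1.28 ± 0.12 and 0.51 ± 0.10. KLF4, a factor required for the skin barrier, fell by 1.28 ± 0.33. Other calls, named after their values were seen, were FOSB (2.64) and JUN (0.28), which rose, and HOPX (-0.93), which fell. CEBPB was the sixth factor that rose. TP63, the master regulator of epidermal fate, had 0 to 5 counts per library in every group.

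CEBPB, a factor of both keratinocyte differentiation and senescent secretion, was at 3.58 ± 0.534 CPM with shAHCY_4, 4.93 ± 0.690 with shAHCY_2, 6.56 ± 0.605 in EV_4OHT and 2.62 ± 0.364 in EV (SD, n = 4 each). It rose in EV_4OHT against EV (1.32 ± 0.17, adjusted p = 1.17e-06) and fell with shAHCY_4 against EV_4OHT (-0.88 ± 0.17, adjusted p = 0.00135). Its difference with shAHCY_2 was -0.42 ± 0.17 (adjusted p = 0.147). VDR, the vitamin D receptor, rose with shAHCY_4 against EV_4OHT (0.58 ± 0.12, adjusted p = 0.00224). With shAHCY_2 against EV_4OHT, 0 factors were called in edgeR's test, against 2 higher and 4 lower at an unadjusted p under 0.05, 1 lower in DESeq2 and 0 in limma-voom. Of all 13526 genes, 6.98% were called there, and 2395 had an unadjusted p up to 0.0315 in edgeR's test. At least 2395 genes were thus under 0.05. Between the hairpins 0 were called in edgeR's test, against 2 higher and 3 lower at an unadjusted p under 0.05, 1 higher in DESeq2 and 0 in limma-voom. Of all genes, 1.24% were called between the hairpins, and 2074 had an unadjusted p up to 0.0387 in edgeR's test. At least 2074 were thus under 0.05 there.

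Markers of other cell types were read beside the LCE genes. Of 13 keratinocyte markers, 3 passed the filter on low counts, IVL, KRT10 and PERP. KRT1 and KRT14, the keratins of upper and basal epidermis, had 0 counts in all 16 libraries and KRT5 had 1. KRT10, the partner of KRT1, was at 47.2 ± 7.61 CPM with shAHCY_4, 70.8 ± 33.7 with shAHCY_2, 54.1 ± 9.64 in EV_4OHT and 58.01 ± 21.2 in EV (SD, n = 4 each), and its difference between EV_4OHT and EV did not pass the threshold (log2 -0.10, adjusted p = 0.736 in edgeR's test). The list summed to 340 to 399 CPM with shAHCY_4, 391 to 693 with shAHCY_2, 434 to 524 in EV_4OHT and 464 to 722 in EV, most of it from PERP and KRT10, which were read in EV too.

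Of 8 airway epithelium markers, 5 were tested, and in EV_4OHT against EV KRT18 rose (0.39) while KRT19 (-5.14) and CLDN4 (-1.81) fell. In that contrast 53.5% of all genes tested were called. SFTPC and NKX2-1 had 0 counts throughout. The list summed to 48.95 to 62.5 CPM with shAHCY_4, 48.0 to 62.9 with shAHCY_2, 54.4 to 65.6 in EV_4OHT and 104 to 126 in EV.

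Of 5 endothelial markers, 3 were tested, and PECAM1 and CDH5 had 0 counts. TEK fell in EV_4OHT against EV (-0.59), where 53.5% of all genes tested were called. KDR had 16 counts with shAHCY_4, 41 with shAHCY_2, 42 in EV_4OHT and 1 in EV. The list summed to 2.42 to 4.96 CPM with shAHCY_4, 3.35 to 5.18 with shAHCY_2, 4.59 to 6.32 in EV_4OHT and 6.08 to 7.40 in EV.

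Of 5 leukocyte markers, PTPRC alone was tested, with 18 counts with shAHCY_4, 30 with shAHCY_2, 23 in EV_4OHT and 0 in EV, and CD3E had 0 counts. That list summed to 0.261 to 1.10 CPM with shAHCY_4, 0.623 to 1.09 with shAHCY_2, 0.628 to 1.20 in EV_4OHT and 0.137 to 0.582 in EV. Of 5 melanocyte markers, both that were tested, PMEL (0.94) and MITF (0.46), rose in EV_4OHT against EV, where 53.5% of all genes tested were called. The melanocyte list summed to 19.6 to 21.6 CPM with shAHCY_4, 21.2 to 25.7 with shAHCY_2, 26.2 to 32.0 in EV_4OHT and 19.6 to 22.8 in EV. The part of other cell types in the LCE levels was not tested.

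The genes most like LCE1F and LCE2A over the 16 libraries were found by the root mean square difference of log2 CPM, after each gene was centred on its own mean (prior count of 2). Nearest to LCE1F were MMP3 (0.54), TNFSF15 (0.59), CSF3 (0.64), IL1B (0.64) and MMP10 (0.66), which encode a pair of matrix proteases and 3 cytokines. Nearest to LCE2A were TAGLN3 (0.30), LINC01705 (0.32), DCSTAMP (0.35), SNCB (0.39) and FER1L6 (0.41). LCE1F and LCE2A lay 0.86 from each other. TAGLN3, related to the actin-binding transgelins, was at 35.5 ± 3.47 CPM with shAHCY_4, 62.9 ± 5.45 with shAHCY_2, 92.0 ± 3.76 in EV_4OHT and 1.08 ± 0.232 in EV (SD, n = 4 each), the same order of groups as LCE2A. MMP3, by contrast with LCE1F, was at 2840 ± 410 CPM with shAHCY_4, 2234 ± 301 with shAHCY_2, 1842 ± 96.0 in EV_4OHT and 13.02 ± 4.38 in EV, so that its order among the 4OHT groups was not that of LCE1F. With a prior count of 0.5, 3 of the 5 genes nearest LCE1F and 2 of the 5 nearest LCE2A were again among the nearest 5. Of the 10 genes, 6 were highest in EV replicate 52 among the EV libraries, the library that was also highest there for LCE1F and LCE2A. That library was part of the distance that chose the 10 genes. The choice therefore favoured genes high in it, and the count shows nothing further about the library. Whether that library differs as a whole was not tested. The distances are a description over 16 libraries that share the same step between EV and the 4OHT groups, and carry no test.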

How the data were processed

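RNA of 16 libraries was measured with the Smart-Seq2 protocol, which does not mark strand, per the labels' protocols. The submitters' processing notes name CASAVA 1.8.2, TopHat2 2.0.11 and featureCounts 1.18.0, and the builds hg19 and GRCh37. For read length, annotation release and multi-mapping reads, nothing is given in the sources used here. The authors deposited raw, whole-number counts per Ensembl gene for all libraries. Symbols were matched for 50127 of 62069 identifiers, and the rest held 0.503% of counts.

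Genes kept by filterByExpr (13526) were fitted in 1 edgeR 4.0.16 quasi-likelihood model (R 4.3.3) with TMM factors and a mean for each of the 4 groups. The groups share this estimate of the spread (biological coefficient of variation 11.9%). Adjusted p-values are Benjamini-Hochberg over all genes tested, with a threshold of 0.05. Standard errors are the absolute log2 fold change over the square root of F. Levels are CPM scaled by TMM factors. DESeq2 1.42.0, limma-voom (limma 3.58.1), other scalings and filters, single-library omissions and, chosen after the data were seen, a GC correction were alternatives. The 24 library pairs within groups all differed by more than sampling noise.

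The members, the lists, the markers and the rule for named genes were chosen with earlier results of these data known. The rule named the members, the LCE genes just outside the threshold, up to 5 genes per list with the smallest adjusted p in EV_4OHT against EV and up to 3 per hairpin comparison, a few fixed genes, and the 5 genes nearest in pattern to LCE1F and to LCE2A. Sequences are RefSeq promoters (GRCh38.p14) and GENCODE v29 transcripts, another build than that of the counts. Depth and counting intervals are given beside the values and cover counting error only. Of what was examined, 1 transcription factor and 1 motif are not reported here.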

Additional observations from a re-analysis of the deposited data

Results flagged for a closer look

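LCE1F, LCE2A, LCE3D and the share of LCE2A in the pair were examined in each group for a library that stands apart. Of these 16 sets of 4 libraries, 2 had one, where chance gives about 1 in 20 for each set. LCE3D in EV, at 0 counts, could not have one. The share is built from LCE1F and LCE2A, so the sets are not independent. In EV, replicate 52 had LCE2A at 0.984 CPM, against 0.311 to 0.410 CPM in the other 3 libraries, and it also had the most LCE1F (14 counts, against 2 to 6). With shAHCY_2, replicate 57 had a share of LCE2A in the LCE1F and LCE2A counts of 31.1%, against 27.5% to 27.9% in the other 3.

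The effect of the 2 hairpins differed for 2 genes, by the test of shAHCY_4 against shAHCY_2 itself. For LCE2A the effect of shAHCY_4 minus that of shAHCY_2 was -0.97 ± 0.13 on the log2 scale (SE; adjusted p = 0.000444 in edgeR's quasi-likelihood test), lower in 4 of 4 libraries with shAHCY_4 than in any with shAHCY_2. For LCE1F it was -0.59 ± 0.13 (adjusted p = 0.0228 in the same test), also lower in 4 of 4. AHCY itself was at 14.7 ± 2.19 CPM of the library total with shAHCY_4 and at 18.4 ± 4.76 with shAHCY_2 (SD, n = 4 each).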

How the results depend on the processing

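No paired analysis was possible because no replicate number is shared between groups. Over 9 other settings and 16 single-library omissions, 206 of 218 tested values of LCE1F, LCE2A and LCE3D kept their direction and side of the threshold. LCE2A with shAHCY_2 against EV_4OHT passed in DESeq2 (-0.37), limma-voom (-0.36) and a fit of those 2 groups (-0.36), and lay between -0.42 and -0.33 over single omissions. LCE1F lay between -0.63 and -0.50 over single omissions for shAHCY_4 against shAHCY_2, and between -0.52 and -0.43 for shAHCY_4 against EV_4OHT. Fitted LCE3D differences from EV, at 0 counts, depend on the prior count, and limma-voom gave 5.09 with shAHCY_4, 3.73 with shAHCY_2 and 4.77 in EV_4OHT. Over single omissions LCE3D with shAHCY_4 against EV_4OHT ran from -0.027 to 0.51, changing sign without shAHCY_4 replicate 63 or EV_4OHT replicate 55, and was not called in any of them. Adjusted p-values over alternatives ran from 1.13e-11 to 0.00424 for LCE2A between the hairpins. Calls over all genes moved more. Between the hairpins 73 genes were higher and 95 lower, against 247 and 240 in DESeq2, 123 and 430 without the low-count filter, 31 and 47 in a fit of those 2 groups, 327 and 259 with the GC trend of each library removed, and 28 to 165 and 38 to 163 over single omissions, lowest without shAHCY_4 replicate 62 (28 higher) or 64 (38 lower) and highest without EV replicate 51. Omitting EV replicate 49 or 50, EV_4OHT replicate 55, any of shAHCY_2 replicates 58 to 60 or shAHCY_4 replicate 63 also moved a count of these by over 1.5 times. For shAHCY_4 against EV_4OHT, 1025 were higher and 928 lower, against 1577 and 1559 in a fit of those 2 groups, 1481 lower with the GC trend removed, and 679 (without EV_4OHT replicate 56) to 1267 higher over single omissions. For shAHCY_2 against EV_4OHT, 529 were higher and 415 lower, against 764 lower with the GC trend removed, and 349 (without EV_4OHT replicate 55) to 644 and 273 (without EV_4OHT replicate 54) to 512 over single omissions. The cause of these moves was not tested. Scaling by library totals moved the median log2 change of EV_4OHT against EV to -0.13, and the share of calls that were higher to 38.2% there (49.9% with TMM), to 67.4% for shAHCY_4 against EV_4OHT (52.5%) and to 69.8% for shAHCY_2 against EV_4OHT (56.04%). Removing the GC trend gave 55.8% between the hairpins (43.5%), and 46.0% for shAHCY_2 against EV_4OHT. With a prior count of 0.5, 3 of the 5 genes nearest LCE1F and 2 of the 5 nearest LCE2A were kept. Depth limits LCE3D and the genes under the count threshold, where a group holds at most 53 counts.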
